A study of Mus musculus with 4 samples.

Results

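The cytosolic ribosomal protein genes encode the proteins of the ribosome outside mitochondria. They were taken as every row whose symbol is Rpl or Rps followed by a number (with the suffixes of named paralogs), together with Rpsa, Rplp0, Rplp1 and Rplp2, leaving out pseudogenes with names ending in -ps and the Rps6k kinases. This gave 87 genes of 33219 listed, 52 Rpl and 35 Rps, of which 83 were listed for all 4 tumours. The data were 10x Genomics single-cell transcriptomes of 4 untreated end-point medulloblastomas of the Sonic hedgehog (SHH) subgroup, from Ptch1+/- mice irradiated at birth. Cells had been frozen viably, thawed and sorted as live. All 4 tumours form 1 group, and each is called by its replicate number. Whether the 4 tumours come from 4 animals is not spelled out in the labels, so errors describe the spread between these libraries.

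A ribosome has a large subunit, built around the 28S, 5.8S and 5S rRNAs with the Rpl proteins, and a small subunit, built around the 18S rRNA with the Rps proteins. Rplp0, Rplp1 and Rplp2 form the stalk that recruits translation factors. Most ribosomal protein mRNAs begin with a run of pyrimidines, the 5′ terminal oligopyrimidine (TOP) motif, through which mTOR signalling sets their translation. SHH medulloblastoma arises from granule neuron progenitors of the cerebellum, cells that divide and then leave the cycle to become neurons.

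Promoter windows of 6 members are shown because the results turn on 5 of them, with Rps6 as a familiar member for comparison. Each runs from 50 bases before to 20 bases after the annotated start, 5′ to 3′ on the gene's strand, from RefSeq on GRCm38.p6. Capitals mark the longest run of C and T that overlaps the start region, and any CCGGAAG or its complement CTTCCGG, the core that ETS factors bind. The windows are chr4:86857348-86857417 (minus strand, Rps6), chrX:74270766-74270835 (plus, Rpl10), chr14:18270967-18271036 (minus, Rpl15), chr12:69184048-69184117 (minus, Rpl36al), chr3:28805458-28805527 (plus, Rpl22l1) and chr9:66946036-66946105 (plus, Rps27l).
Rps6: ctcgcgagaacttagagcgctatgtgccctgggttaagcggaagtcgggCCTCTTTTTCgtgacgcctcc
Rpl10: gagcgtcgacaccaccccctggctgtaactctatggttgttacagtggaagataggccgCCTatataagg
Rpl15: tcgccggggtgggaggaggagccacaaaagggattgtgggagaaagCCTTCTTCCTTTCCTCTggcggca
Rpl36al: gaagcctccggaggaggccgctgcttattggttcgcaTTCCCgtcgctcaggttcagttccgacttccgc
Rpl22l1: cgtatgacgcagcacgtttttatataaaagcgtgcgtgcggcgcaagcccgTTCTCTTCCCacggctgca
Rps27l: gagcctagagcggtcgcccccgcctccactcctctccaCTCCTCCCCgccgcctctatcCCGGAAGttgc

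A RefSeq promoter was found for 64 of the 87 members. A run of at least 8 C or T bases, on the gene's strand and overlapping the stretch from 10 bases before to 15 after the start, was present in 28 of these 64 (43.8%), against 15.2% of all 27025 genes with a promoter. CCGGAAG on either strand within 250 bases before to 50 after the start was present in 25 of 64 (39.1%), against 9.12% of all. The run was 17 bases long in Rpl15, 10 in Rps6 and Rpl22l1, 9 in Rps27l, 5 in Rpl36al and 3 in Rpl10. These are matches of letters, not measured binding or start sites.

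Tumours 1 to 4 gave 798, 2589, 1229 and 1893 cells with 10458431 to 23439893 UMIs (unique molecular identifiers, 1 per captured mRNA) in total. Libraries shared at most 7 cell barcodes. Clusters were made without the ribosomal protein genes and were named from marker genes, so names end in -like. Progenitor-like cells, which join granule progenitor-like, cycling-like and mixed-phase clusters, numbered 387, 1825, 910 and 466. Of tumour 4's progenitor-like cells 459 were of mixed phase, a cluster that held 0 cells of the other tumours. Nearly all neuron-like and myeloid-like cells of tumour 4 also sat in clusters apart from those of tumours 1 to 3. The 8 granule progenitor markers, Atoh1, Gli1 and Mycn among them, summed to 1624 to 3831 CPM (the usual scaling of UMIs to a fixed total, here per tumour and class) in progenitor-like cells and to 62.1 to 463 in myeloid-like cells.

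Ribosomal protein mRNA was a large part of the transcripts of progenitor-like cells. The share of UMIs was 24.5%, 21.98%, 20.5% and 29.2% in tumours 1 to 4, or 24.0 ± 3.81% (SD, n = 4). Counting error was small beside this spread, as the exact 95% binomial interval of tumour 3 ran from 20.47% to 20.52%, and it covers counting error only. Large subunit genes took 56.3 ± 0.525% of the members' UMIs in these cells, and between 54.1% and 57.9% in every class and tumour with at least 10 cells. The balance of the subunits therefore moved far less than the total.

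**Figure D1:**
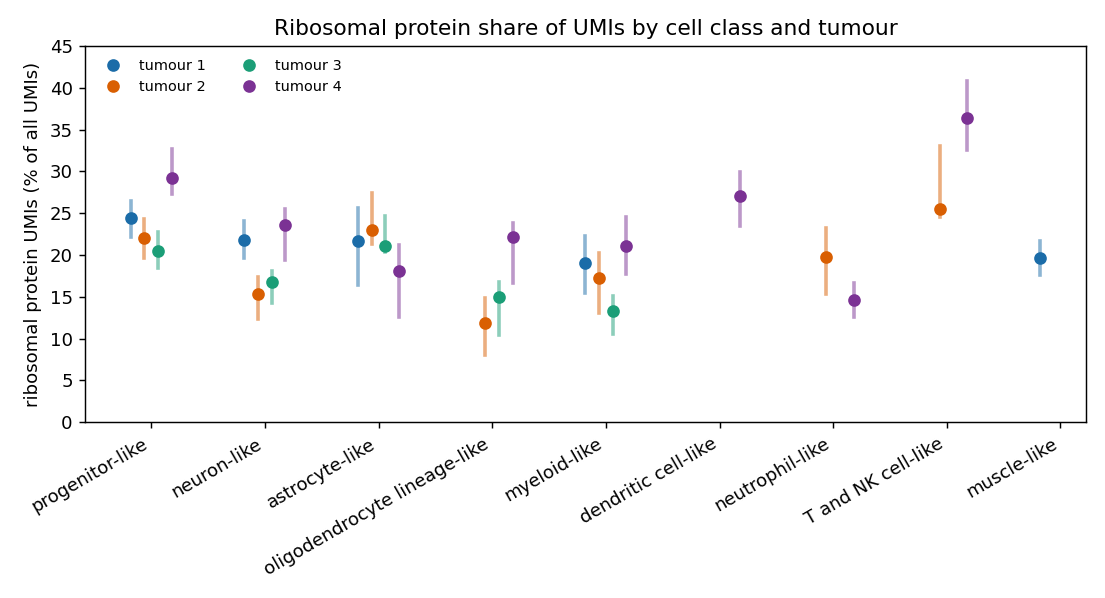
Share of all UMIs that came from ribosomal protein genes (y axis, percent) by cell class (x axis), with 1 point for each tumour with at least 10 cells of the class and a bar from the lower to the upper quartile of single cells. T and NK cell-like cells of tumour 4 stand highest at 36.4% and oligodendrocyte lineage-like cells of tumour 2 lowest at 11.8%.

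Neuron-like cells had a lower ribosomal share of UMIs than progenitor-like cells of the same tumour. Their share was 21.8%, 15.4%, 16.8% and 23.6% in tumours 1 to 4. Their median depth was 15921, 5577, 5072.5 and 9219 UMIs per cell, against 13172, 8578, 7087.5 and 8625 in progenitor-like cells. A lower share therefore need not be less mRNA per cell, and the part of depth was not tested. The share was lower in 4 of 4 tumours, with differences of -2.71, -6.59, -3.74 and -5.56 percentage points and a mean of -4.65 ± 1.75 points (SD, n = 4). The exact two-sided sign-flip permutation test gave p = 0.13, the smallest that 4 tumours allow. Across tumours the ranges overlap, since tumour 4's neuron-like cells lie above the progenitor-like cells of tumours 2 and 3. A cluster of 230 cells, 183 of them from tumour 1, was left unnamed and in neither class. Its median depth was 2.66 times the tumour median, over the naming limit of 2. Its only markers among the 50 leading genes were the neuron markers Stmn2, Neurod1 and Cntn2. Its share was 27.0%, 18.6% and 20.4% in tumours 1 to 3, above progenitor-like cells in tumour 1 alone. How it would change the comparison was not tested.

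Single members followed the total. In limma, on log2(CPM + 10) of summed UMIs with tumour as a block, 79 of 83 members were lower in neuron-like cells and 0 higher at an adjusted p below 0.05, where 18.8% of all 9397 genes tested were called lower, 23.9% higher and 42.7% either way. The median difference of the members was -0.31, against 0.03 over all genes tested. With tumour left out as a block 2 members were called, and with coarser clusters (resolution 0.5) 0 were called and the share difference was -1.98 points. At that resolution 593 cells of tumour 4, led by the progenitor marker Sfrp1, took the neuron-like name. The 4 members that missed the threshold included Rpl24, Rpl34 and Rps14.

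Rpl22l1, a paralog of Rpl22, had the largest drop of the 83. It was at 1098, 957, 811 and 985 CPM in progenitor-like cells of tumours 1 to 4 and at 779, 450, 484 and 675 in neuron-like cells. The groups did not overlap, and its difference was -0.71 (SE 0.09, limma adjusted p = 5.4e-05). Rps27l, a paralog of Rps27 induced by p53 in human cells, was at 764, 746, 550 and 697 CPM in progenitor-like cells and at 577, 386, 364 and 516 in neuron-like cells. It was lower in each of the 4 tumours, with a difference of -0.58 (SE 0.08, limma adjusted p = 0.00017), although the ranges of the groups overlap.

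To see which members departed from the common fall, each was scaled to the summed UMIs of all members. On this scale 13 members were lower and 10 higher in neuron-like cells, where 7.66% and 46.7% of all genes were called (54.4% either way). The largest shortfalls were Rpl22l1 (-0.40, SE 0.07), Rps27l (-0.28, SE 0.08) and Rpl12 (-0.26, SE 0.07), a protein at the base of the stalk. Among the largest gains were Rpl24 (0.43, SE 0.18), near the floor with a UMI in only 9.23% to 21.8% of cells per tumour, and Rps14 (0.18, SE 0.04). These 5 had limma adjusted p-values between 6.8e-05 and 0.046. The count of 23 fell to 9 without tumour 3 and to 11 without tumour 4, and Rpl24 lost its call without tumour 2, 3 or 4. Of the stalk genes, Rplp1 was lower relative to the total (-0.17, SE 0.05, limma adjusted p = 0.0051), while Rplp0 (0.04, SE 0.04) and Rplp2 (-0.08, SE 0.05) did not pass.

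**Figure D2:**
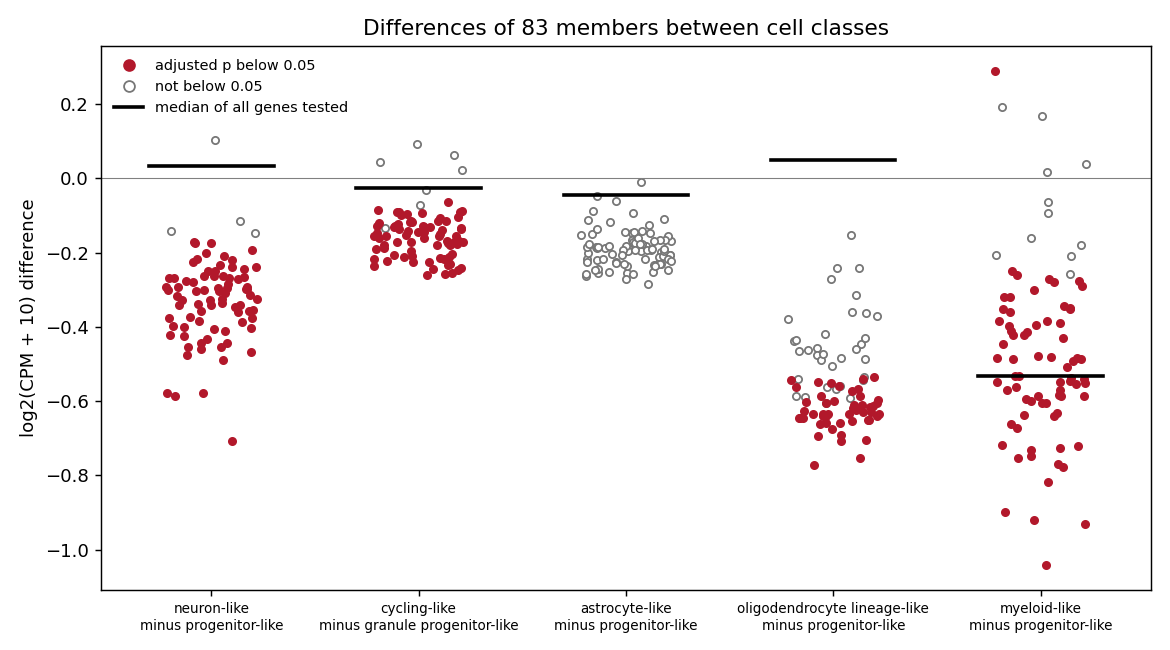
Difference in log2(CPM + 10) of each of the 83 members tested (points) for 5 comparisons of cell classes, red where the limma adjusted p was below 0.05, with a black line at the median of all genes tested. In neuron-like cells 79 points are red and lie below 0. In myeloid-like cells the members' median of -0.49 lies near the -0.53 of all genes.

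Cycling-like cells also had a lower ribosomal share than granule progenitor-like cells, in the 3 tumours that held both. The share was 23.4%, 20.7% and 19.2% in cycling-like cells of tumours 1 to 3 and 26.2%, 23.3% and 21.4% in granule progenitor-like cells. The difference was -2.52 ± 0.311 points (SD, n = 3; exact sign-flip permutation p = 0.25, the smallest that 3 tumours allow). Cycling-like cells were deeper, with medians of 15391, 10677.5 and 9220 UMIs per cell against 10595, 7311 and 6286. The part of depth in the result was not tested. Granule progenitor-like cells may include cells that are entering the cycle, as 763 of them formed a cluster led by Ung, Srebf1 and Mcm replication genes. The 10 cycling markers summed to 246 to 648 CPM in granule progenitor-like cells and to 3176 to 4219 in cycling-like cells. The comparison is therefore not a clean one of dividing with undivided cells.

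Of the 83 members 76 were lower in cycling-like cells and 0 higher, where 17.6% of all 9468 genes were called lower, 14.5% higher and 32.2% either way. The members' median difference was -0.15, against -0.03 over all genes. The call count was 0 without tumour as a block, and 27 on the mean of the deposited log2 values. The 7 members that did not pass included Rps27l, Rpl22l1, Rpl7l1 and Rpl36al, each of which is a paralog of another member.

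Relative to the ribosomal total, 14 members were higher and 12 lower in cycling-like cells, where 29.4% and 6.83% of all genes were called (36.3% either way). The count of 26 fell to 12 without tumour 2 and to 13 without tumour 3. Rps27l made up 0.338%, 0.364% and 0.282% of member UMIs in cycling-like cells of tumours 1 to 3 and 0.276%, 0.317% and 0.259% in granule progenitor-like cells. It was higher in 3 of 3 tumours, with a relative difference of 0.21 (SE 0.04, limma adjusted p = 0.0003). Rpl7l1, a paralog of Rpl7 that takes part in ribosome assembly, rose by 0.23 (SE 0.06, limma adjusted p = 0.0041), and the call was lost without tumour 3 (adjusted p = 0.052). Rpl24, at 11.1 to 12.5 CPM on average, had the largest value, 0.27 (SE 0.16), and did not pass. Rps18 and Rpl10 were lowest, each near -0.10, and Rpl10 missed the threshold without tumour 2 (adjusted p = 0.051).

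**Figure D3:**
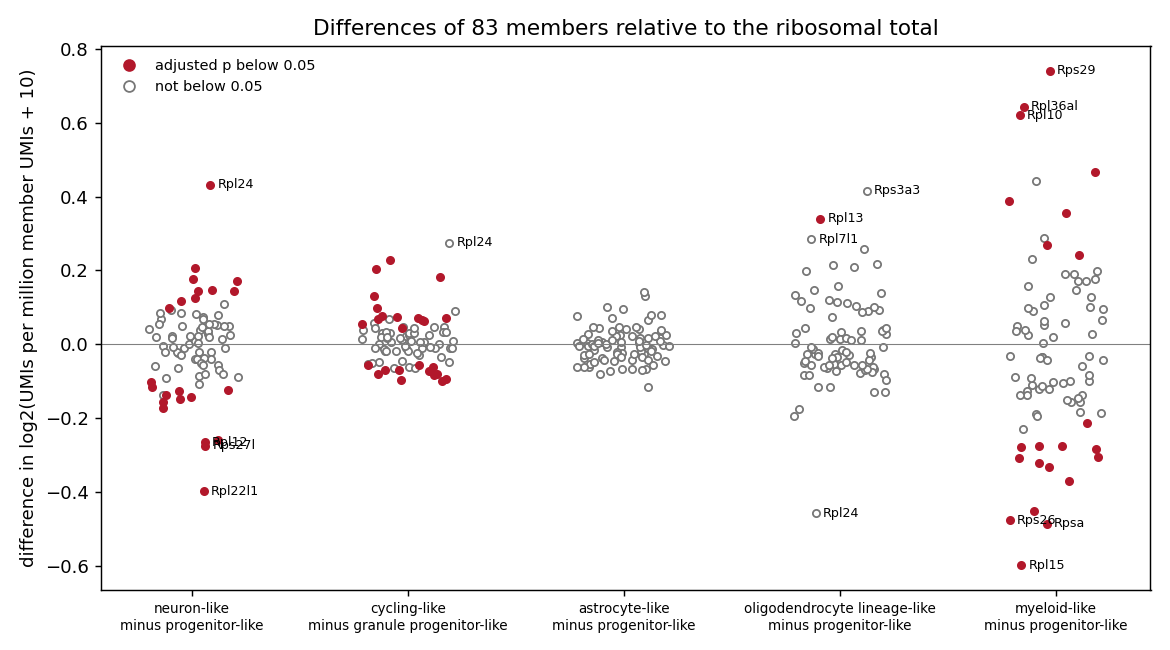
Difference of each of the 83 members after scaling to the summed member UMIs (y axis, log2 scale, with the member UMIs as the total of the CPM and 10 added) for the same 5 comparisons, red where the limma adjusted p was below 0.05; names mark values beyond 0.25 among the 3 highest and 3 lowest. The spread is widest in myeloid-like cells, from Rpl15 at -0.60 to Rps29 at 0.74.

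Myeloid-like cells, with microglial, macrophage and monocyte markers, had a lower ribosomal share as a class. Of the 5 comparisons fitted theirs had the widest range of member differences relative to the total, from -0.60 to 0.74. Their share was 19.1%, 17.3%, 13.3% and 21.1% in tumours 1 to 4, lower than in progenitor-like cells of each tumour, with differences of -5.39, -4.69, -7.21 and -8.12 points (mean -6.35 ± 1.59, SD, n = 4; exact sign-flip permutation p = 0.13, the smallest possible). Tumour 3 gave only 12 such cells. The class was not uniform. With finer clusters (resolution 2) a cluster with no name, led by H2-Aa, H2-Ab1 and Cd74, held 27 and 34 cells of tumours 1 and 2. Those genes also led the class there at resolution 1. Its share was 24.1% and 23.5%, against 16.4% and 15.1% in a myeloid-like cluster led by Lyz2 and Apoe. In tumour 4 a myeloid-like cluster led by Chi3l3 and Plac8 (106 cells) had 23.4%, still below progenitor-like cells. On log2(CPM + 10), 71 of 83 members were lower in the whole class and 1 higher. But 54.1% of all 9533 genes were also called lower, 11% higher and 65.1% either way. The 1 higher member was Rps29 (0.29, SE 0.08, limma adjusted p = 0.011), a call lost without tumour 1 or 2. The members' median of -0.49 was close to the -0.53 of all genes. Under median-of-ratios scaling 3 members were lower and 6 higher, with a median of 0.02, so the direction of single members between these classes depends on the scaling.

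Differences relative to the ribosomal total do not depend on that scaling. On that measure 14 members were lower and 8 higher, where 31.8% and 14.1% of all genes were called (45.9% either way). The count of 22 was 11, 12 and 12 without tumours 1, 2 and 4, and 43 without tumour 3. Rps29, a small zinc-binding protein of the small subunit head, made up 3.74%, 2.48%, 3.64% and 3.40% of member UMIs in myeloid-like cells of tumours 1 to 4. In progenitor-like cells it made up 2.23%, 1.43%, 2.17% and 2.12%. The groups did not overlap, and the difference was 0.74 (SE 0.06, limma adjusted p = 3.7e-05). Rpl36al (0.64, SE 0.12) and Rpl10 (0.62, SE 0.09), a late-joining protein of the large subunit, followed, each higher in 4 of 4 tumours.

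Rpl15 was lowest in myeloid-like cells, at 0.798%, 0.569%, 0.587% and 0.599% of member UMIs against 1.12%, 0.875%, 0.982% and 0.87% in progenitor-like cells. These groups did not overlap, and its relative difference was -0.60 (SE 0.09, limma adjusted p = 0.00077). Rpsa, which is also a laminin receptor, was at -0.49 (SE 0.08) and Rps26 at -0.48 (SE 0.09), each lower in 4 of 4 tumours with limma adjusted p = 0.0014 and 0.0025.

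Glia differed in their share. Oligodendrocyte lineage-like cells had 11.8%, 15.01% and 22.1% in tumours 2 to 4, from 16, 39 and 46 cells. Their make-up differed between tumours: Mbp, a myelin gene of mature oligodendrocytes singled out after its values were seen, was at 2413, 172 and 92.8 CPM in tumours 2 to 4, and the 7 precursor markers, Pdgfra and Cspg4 among them, summed to 4595, 2783 and 2067 CPM. The share was lowest where Mbp was highest, and the part of this make-up in it was not tested. At resolution 2 the 46 cells of tumour 4 were split off from the rest. The class was lower than progenitor-like cells in 3 of 3 tumours, with a mean difference of -7.56 ± 2.36 points (SD, n = 3; exact sign-flip permutation p = 0.25, the smallest possible). There 49 of 83 members were lower and 0 higher, where 1.68% of all 10345 genes were called lower, 7.31% higher and 8.99% either way. This count was 78 without tumour 2, 1 without tumour 3, 24 without tumour 4 and 1 with a pseudocount of 1. Relative to the total only Rpl13 was called (0.34, SE 0.08, limma adjusted p = 0.01), where 0.0773% of all genes were called lower, 22.1% higher and 22.2% either way. It made up 3.89%, 3.18% and 2.32% of member UMIs in these cells and 2.63%, 2.80% and 1.92% in progenitor-like cells of tumours 2 to 4.

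Astrocyte-like cells showed no difference that passed. Their share was 21.7%, 22.9%, 21.05% and 18.1%, lower than in progenitor-like cells in tumours 1 and 4 and higher in tumours 2 and 3. The cluster's leading gene was Ttr, a choroid plexus marker. The 5 choroid and ependymal markers summed to 4.6, 9.28, 0 and 20006 CPM in tumours 1 to 4, and the 10 astrocyte markers to 4948, 6562, 7034 and 20730. These are sums over all cells of the class, so they cannot show whether single cells of tumour 4 carried both sets. The astrocyte list is also not specific, as it summed to 24874 to 36858 CPM in myeloid-like cells. Neutrophil markers summed to 1644 CPM in tumour 4 and to at most 106 in the others. They were raised across tumour 4, from 638 CPM in progenitor-like to 1938 in dendritic cell-like cells, leaving aside neutrophil-like cells. The value is therefore not particular to astrocyte-like cells. The part of the make-up of tumour 4's astrocyte-like cells in the result was not tested. The mean difference was -3.08 ± 5.60 points (SD, n = 4; exact sign-flip permutation p = 0.5), and -0.41 without tumour 4. In limma 0 of 83 members passed after adjustment and 0 had an unadjusted p below 0.05, where 1.68% of all 9833 genes were called lower, 3.16% higher and 4.84% either way. Relative to the ribosomal total 0 members passed, where 0.173% of all genes were called lower, 2.19% higher and 2.36% either way. Tumours 1, 2 and 4 had only 11, 25 and 23 astrocyte-like cells.

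Lymphocytes and granulocytes could be compared in tumours 2 and 4 alone, with no test. T and NK cell-like cells had 25.5% (10 cells) and 36.4% (156 cells), 8.22 and 15.4 points above the myeloid-like cells of the same tumours. The leading genes of this cluster included the immunoglobulin genes Igkc and Ighg1, so the class may hold other cells than T and NK cells. Its 5 B cell markers summed to 910 and 160 CPM in tumours 2 and 4, against 113 and 123 in myeloid-like cells. The part of such cells in the share was not tested. Neutrophil-like cells had 19.8% (11 cells) in tumour 2 and 14.6% (376 cells) in tumour 4, which is 2.49 points above and 6.47 points below myeloid-like cells. In the neutrophil-like cells of tumour 2 the granule progenitor markers summed to 1840 CPM, against 112 in tumour 4, and their part in the share was not tested. Dendritic cell-like cells of tumour 4 had 27.0% (134 cells) and muscle-like cells of tumour 1 had 19.6% (51 cells).

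Several members have a paralog of their own. The coding sequences of Rps27 and Rps27l are given as an example. UMIs come from transcript ends, so these sequences alone do not show how far reads tell the pair apart. Rps27 (chr3:90212522-90213651, minus strand, GRCm38) and Rps27l (chr9:66946086-66949516, plus) both have 255 coding bases and differ at 61 of them (76.1% identity). Capitals mark the differing bases, from the GENCODE M21 transcripts.
Rps27: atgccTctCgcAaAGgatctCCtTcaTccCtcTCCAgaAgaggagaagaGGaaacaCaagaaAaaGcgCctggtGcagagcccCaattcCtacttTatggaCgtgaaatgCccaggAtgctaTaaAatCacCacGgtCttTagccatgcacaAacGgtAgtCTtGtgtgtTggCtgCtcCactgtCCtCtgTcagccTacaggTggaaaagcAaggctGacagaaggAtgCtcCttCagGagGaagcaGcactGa
Rps27l: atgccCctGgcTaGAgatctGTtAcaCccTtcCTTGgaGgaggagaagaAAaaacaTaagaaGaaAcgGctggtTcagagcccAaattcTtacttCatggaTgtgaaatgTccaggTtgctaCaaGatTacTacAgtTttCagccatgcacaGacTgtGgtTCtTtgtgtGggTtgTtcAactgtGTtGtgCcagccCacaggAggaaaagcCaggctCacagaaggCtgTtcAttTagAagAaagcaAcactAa

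Rps27l took 16.9%, 27.3%, 12.5% and 17.5% of the pair's UMIs in progenitor-like cells of tumours 1 to 4, and 13.6%, 20.4%, 9.48% and 15.1% in neuron-like cells. The tumours differed more than the classes, and within each tumour the neuron-like value was the lower one. In T and NK cell-like cells of tumour 4 the share was 2.85%, with Rps27 at 7989 CPM and Rps27l at 235. In those of tumour 2 it was 19.3%, from only 48 UMIs of Rps27l, against 17.3% in that tumour's myeloid-like cells. Rpl22l1 took 41.6 ± 4.53% of its pair with Rpl22 in progenitor-like cells and 36.0 ± 3.56% in neuron-like cells (SD, n = 4). In neutrophil-like cells of tumour 4 it took 15.4%, against 34.8% in tumour 2. Rpl36al took 21.2 ± 0.859% of its pair with Rpl36a in progenitor-like cells and 34.4 ± 3.95% in myeloid-like cells (SD, n = 4), and these groups did not overlap. Raised values were not particular to myeloid-like cells. In tumours 2 and 4 Rpl36al took 35.6% and 25.8% in T and NK cell-like cells and 24.1% and 44.7% in neutrophil-like cells. It took 30.6% in dendritic cell-like cells of tumour 4 and 32.8% in muscle-like cells of tumour 1.

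**Figure D4:**
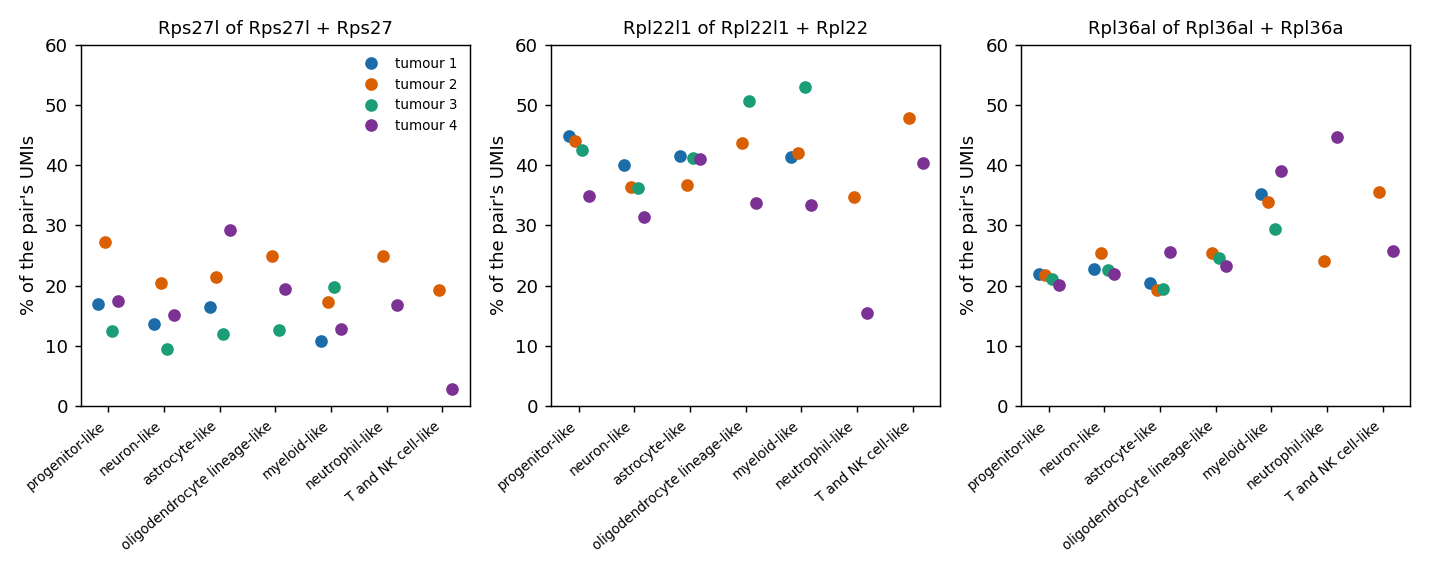
Share of a pair's UMIs (y axis, percent) that came from Rps27l, Rpl22l1 or Rpl36al, by cell class (x axis) and tumour (points, for classes with at least 10 cells). Rpl36al lies between 29.5% and 39.0% in myeloid-like cells and between 20.1% and 21.9% in progenitor-like cells.

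The paralogs Rpl10l, Rpl39l, Rps4y2 and Rpl3l were close to undetected. Rpl10l, a testis paralog of Rpl10, was listed for tumour 1 only, at 0 UMIs. Rpl39l, another testis paralog, had 1 UMI in tumour 1 and 13 in tumour 4. Rps4y2, which RefSeq gives as a synonym of Rps4l, had 0 and 18 UMIs in tumours 1 and 4. Rpl3l, which replaces Rpl3 in muscle, had 8, 7 and 41 UMIs in tumours 1, 2 and 4. In neutrophil-like cells Rpl3l was at 10.3 and 11.02 CPM in tumours 2 and 4, from only 1 and 18 UMIs. In muscle-like cells of tumour 1 it had 0 UMIs.

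Among members listed for all 4 tumours, mean CPM in progenitor-like cells ran from 13.5 for Rpl24 to 6794 ± 1472 for Rpl41 (SD, n = 4), which encodes a very short protein. In CPM, Rpl13 (5687 ± 91.5) and Rps19 (5096 ± 96.3), which is mutated in Diamond-Blackfan anaemia, varied least across tumours relative to their means. They were singled out after their values were seen. As a share of member UMIs they were not steady. The highest tumour was 1.46-fold the lowest for Rpl13 and 1.37-fold for Rps19, against a median of 1.25-fold over members. Rps27a, which is made as a fusion with ubiquitin, was at 4156 CPM on average in progenitor-like cells and 3211 in neuron-like cells (difference -0.38, SE 0.07, limma adjusted p = 0.0012). These are UMIs at transcript ends with no length in them, and copies with nearly the same sequence may share reads.

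Some members divided their UMIs with near-identical copies, in proportions that differed between tumours. Of 86 members in the annotation 64 had another annotated transcript that matched at least 150 of their last 300 bases at 97% identity or more, and for 26 of them such a copy was listed in the tables. The clearest case, singled out after its values were seen, is Rps3a1 (chr3:86137940-86142702, minus strand) and Rps3a3 (chr13:108670603-108671397, plus strand), annotated as a processed pseudogene. The last 120 coding bases of Rps3a1 and the 120 bases of Rps3a3 that match them best differ at 2 positions. Capitals mark the bases of Rps3a3 that differ.
Rps3a1: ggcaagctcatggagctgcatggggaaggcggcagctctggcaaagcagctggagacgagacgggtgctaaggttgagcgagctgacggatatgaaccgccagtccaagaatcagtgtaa
Rps3a3: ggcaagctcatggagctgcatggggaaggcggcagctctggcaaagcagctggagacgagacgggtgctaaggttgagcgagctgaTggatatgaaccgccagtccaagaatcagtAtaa

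In progenitor-like cells Rps3a3 was at 1723, 40.8, 76.5 and 2068 CPM in tumours 1 to 4, while Rps3a1 was at 1884, 3059, 2742 and 2167. The sum with Rps3a2 was 3825, 3202, 2990 and 4384 CPM. Rps3a3 took 45.1%, 1.27%, 2.56% and 47.2% of that sum in progenitor-like cells, and 44.4%, 1.32%, 2.75% and 46.2% in neuron-like cells. The split differed between tumours far more than between these classes. Rpsa and its listed pseudogene Rpsa-ps10 divided in the same manner, with the pseudogene at 33.1%, 4.09%, 7.31% and 16.4% of their sum. How reads that match several genes were counted is not given in the sources used here. Rpl24 stood at 10.96 to 18.7 CPM over all cells. A stretch of 176 of its last 300 bases is identical to Gm28037, which was not listed for any tumour.

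**Figure D5:**
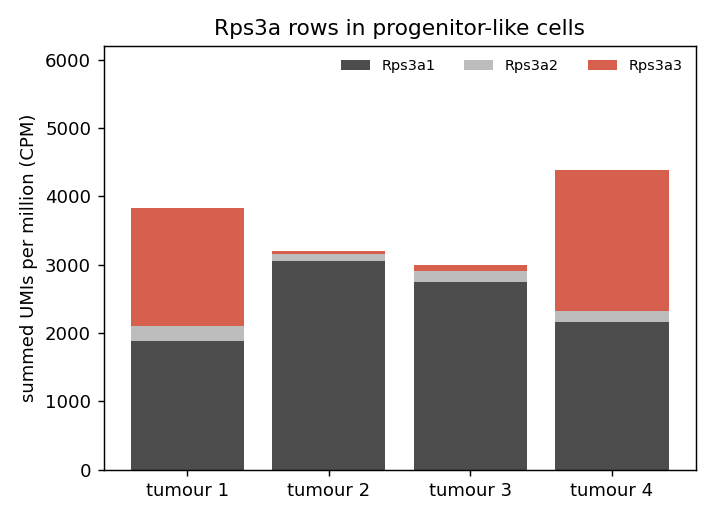
Summed CPM (y axis) of Rps3a1, Rps3a2 and Rps3a3 in progenitor-like cells of each tumour (stacked bars). Rps3a3 is a large part of the bar in tumours 1 and 4 and a sliver in tumours 2 and 3.

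Among the 81 members listed for all tumours, annotated as protein-coding and with at least 30 UMIs in tumour 1, the share of member UMIs in progenitor-like cells differed between the highest and the lowest tumour by a median of 1.25-fold, and by over 1.5-fold for 17. Rpl27a had the widest range, at 0.804%, 0.29%, 0.359% and 0.635% in tumours 1 to 4. Rps27 (2.08-fold) and Rps28 (1.99-fold), which encode short proteins, were lowest in tumour 2. Rps12, between them in range (2.04-fold), was lowest in tumour 3 and highest in tumour 4. These members and Rpl27a were singled out after their values were seen.

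Other genes of the translation machinery were taken from lists and described by counts. In neuron-like cells 30 of 41 ribosome biogenesis genes tested were lower and 1 higher, with a median of -0.35 against 0.03 over all genes. Of all genes in that comparison 18.8% were called lower and 23.9% higher. Gar1, of the pseudouridylation complex, was at -0.81 (SE 0.13), and Ubtf, which drives rRNA transcription, was higher at 0.44 (SE 0.07). Of 30 initiation factors 11 were lower and 1 higher, and the one that rose was Eif4a2 (0.52, SE 0.08). Of 11 other TOP mRNAs 7 were lower and 0 higher, with Npm1 lowest at -0.70 (SE 0.12). Of the 11 genes that control TOP translation and growth 2 were higher and 1 lower, with a median of 0.026 against 0.034 over all genes, of which 42.7% were called either way. Eif4ebp1, a translation repressor under mTOR, fell by 1.48 (SE 0.29), while Tsc1 (0.50, SE 0.12) and Tsc2 (0.89, SE 0.12), which hold mTOR back, rose.

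In cycling-like cells, of 41 ribosome biogenesis genes 5 were higher and 6 lower, where 14.5% of all genes were called higher and 17.6% lower. The list was thus called no more often than genes at large. Nop58 (0.28, SE 0.05) and Nop56 (0.26, SE 0.05), of the box C/D particles, were highest. Of 6 elongation factors 3 were lower and 0 higher, where 17.6% of all genes were called lower, with Eef2 at -0.33 (SE 0.03) and Eef1a1 at -0.23 (SE 0.02). Of the 11 genes of TOP and growth control 3 were higher and 0 lower, where 14.5% of all genes were called higher. In myeloid-like cells 33 of 42 biogenesis genes were lower, with a median of -0.97 against -0.53 over all genes, and 11 of 11 other TOP mRNAs were lower, with a median of -1.17. In that comparison 54.1% of all genes were called lower. In oligodendrocyte lineage-like cells 3 of 7 elongation factors were lower and 1, Eef1a2 (2.05, SE 0.27), higher. Of all genes there 1.68% were called lower and 7.31% higher. In astrocyte-like cells 2 of 42 biogenesis genes were lower, where 1.68% of all genes were called lower.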

How the data were processed

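The authors deposited log2 values per gene and cell, log2(UMI / size factor + 1), a form read from the values. Cell Ranger, Seurat and mm10 are named in the submitters' processing notes, with no versions. Whole UMIs were recovered for every value within 1e-06. Total UMIs per tumour were 19446245, 23439893, 10458431 and 18242667. Tumour 1 lists 33219 genes, the others only genes in at least 5 cells.

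Scrublet called 21 doublets (0.323%) and so had not worked; the 100 cells with the highest scores were removed instead, and 6409 of 6509 were kept. Clusters (scanpy 1.11.5, leidenalg 0.10.2, 1000 variable genes scaled within tumour, resolution 1) left out members and listed genes. Clusters with a median depth over 2 times the tumour median were left unnamed. Naming thresholds were set after the clusters were seen. UMIs were summed per tumour and class (at least 10 cells, at least 3 tumours) and tested with limma 3.58.1 (R 4.3.3) on log2(CPM + 10), with tumour as a block because both classes come from the same tumour, and Benjamini-Hochberg adjusted p over all genes tested (threshold 0.05). Genes tested were listed for all 4 tumours and had a UMI in 5% or more of the cells of 1 of the classes; clustering and marker genes were left out. "Relative" values use the summed member UMIs as total. The test was checked on simulated data. Copies were sought with BLAST 2.17.0.

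Members, lists and comparisons were chosen with earlier results of these data known. Named members are the paralogs with their partners, the stalk genes, Rpsa, Rps27a, and the 3 highest and 3 lowest relative differences of each comparison; of a list, some of the 2 highest and 2 lowest. A member that the rule names is not reported here. Others are said to be chosen after their values were seen. Comparisons with progenitor-like cells share those cells. Alternatives were other scalings, pseudocounts, filters, clusterings and left-out tumours. The T and NK cell-like and neutrophil-like comparisons had 2 tumours and were not fitted.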

Additional observations from a re-analysis of the deposited data

Results flagged for a closer look

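Rows of ribosomal protein pseudogenes, whose names end in -ps, were outside the members but carried UMIs. They made up 0.569%, 0.184%, 0.327% and 0.536% of all UMIs in tumours 1 to 4, from 25 such rows. They were flagged as a signal in rows the comparisons did not use. Among 27 sets of 4 tumour values examined for a tumour far from the others, 0 were flagged, where chance flags about 1 in 20.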

How the results depend on the processing

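Members called numbered 79, 76, 0, 49 and 72 in the neuron-like, cycling-like, astrocyte-like, oligodendrocyte lineage-like and myeloid-like comparisons, and 23, 26, 0, 1 and 22 relative to the total. Without the replicate block (tumour) they were 2, 0, 0, 0 and 42, and 0, 0, 0, 0 and 8 relative to the total. At resolution 0.5 they were 0 (neuron-like) and 0 (oligodendrocyte lineage-like), and relative to the total 1, 0 and, for myeloid-like, 13; the share differences there were -1.98 and -2.99 points. At resolution 2 the cycling-like relative count was 16 and its share difference -3.01 points, and -2.83 as a mean of cells. On the mean deposited log2 value the counts were 27 (cycling-like), 82 (oligodendrocyte lineage-like; 21 relative) and 25 (myeloid-like). Median-of-ratios scaling gave 77 and 9 in the last 2. The oligodendrocyte lineage-like count was 1 with a pseudocount of 1, 7 with no detection filter and 30 with clustering and marker genes kept. Leaving out 1 tumour gave 66 to 78, 71 to 75, 0 to 0, 1 to 78 and 62 to 76 members called, and 9 to 24, 12 to 22, 0 to 0, 1 to 2 and 11 to 43 relative to the total. The causes were not tested. Among single members, Rplp1 (0.21), Rplp2 (0.12), Rps27a (0.021) and Rps27l (0.013) turned positive in myeloid-like cells under median-of-ratios scaling, and Rpl7l1 (0.0069) in neuron-like cells at resolution 0.5; none of the 5 then passed. Of 1679 values of named members under an alternative, 1435 kept their direction and their side of the threshold, 197 lost and 42 gained the call, and 5 turned. Astrocyte-like cells at resolution 0.5, and oligodendrocyte lineage-like cells at resolution 2 or with doublets kept, gave no value. Few cells limit the glial comparisons and myeloid-like cells of tumour 3.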
